A study of Rattus norvegicus with 26 samples.

Results

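Expression of 45 genes for glutamate receptors, their auxiliary subunits, the scaffolds that hold them at the synapse and the vesicular glutamate transporters was examined in the dentate gyrus (DG) of 26 rats. The members were taken by gene name, as the genes of the NMDA (Grin), AMPA (Gria), kainate (Grik), delta (Grid) and metabotropic (Grm) receptors, the auxiliary subunits Cnih2, Cnih3, Shisa6, Shisa7, Neto1 and Neto2, the scaffolds of the Dlg, Homer and Shank families, and Slc17a6, Slc17a7 and Slc17a8. They filled 98 of the 24012 transcript rows listed and 45 of the 17910 genes, and Shisa9, which the name rule also allows, was not analysed here. All 45 averaged 5 or more normalized counts over the rats, the filter that 15595 genes passed in all.

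Glutamate carries most of the fast excitatory signalling in the hippocampus. Entorhinal axons release it onto the dendrites of the DG granule cells, where AMPA receptors pass the fast current. NMDA receptors conduct when glutamate binds them while the membrane is depolarized, and admit the calcium that starts lasting changes in synaptic strength. Kainate and metabotropic receptors tune release and excitability on both sides of the synapse, auxiliary subunits set how long receptors conduct and where they sit, and the Dlg, Homer and Shank proteins tie them to the signalling machinery of the postsynaptic density.

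The rats were male F344 rats of 6 months, in a Veh group (n = 10), a Dox group (n = 8) and a Dox + ABT group (n = 8). Both treated groups received doxorubicin (Dox), an anthracycline used in chemotherapy, in 4 weekly injections of 2 mg/kg. The Dox + ABT rats were in addition given ABT-263 (navitoclax), a compound that blocks survival proteins of the Bcl-2 family and kills senescent cells, at 12 mg/kg by gavage on 5 consecutive days in weeks 2 and 4. All rats were put through behavioural tests, the Veh rats belonged to an ongoing study of brain aging and were gavaged with vehicle, and no group received ABT-263 without Dox. The study recorded NMDA receptor responses in hippocampal slices at synapses of the CA fields, a region other than the one sequenced, so the comparisons below ask how the transcripts for these receptors differed in the DG and not what the recordings measured. DG tissue of 1 hemisphere gave 1 library of poly(A) RNA per rat, and values are normalized counts, reads per gene divided by a size factor of the library.

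Libraries differed within groups along 1 axis that bears on many of the members. The leading principal component of each library's deviation from its group mean, computed without the members, split 16 libraries (4 Veh, 5 Dox and 7 Dox + ABT), called here the first kind, from 10 (6 Veh, 3 Dox and 1 Dox + ABT), called the second kind. Genes for ribosomal proteins took 0.621% to 1.22% of normalized counts in the first kind and 1.29% to 2.06% in the second. The split was made from the values, the sources used here name no batch, and the calls of members below are also given with library kind in the model. Granule cell markers were present in every group, with a summed level of 4 of 5 listed genes (Prox1, C1ql2, Dsp and Calb1) from 8177 to 13390 normalized counts. Markers of CA pyramidal cells, of which 5 of 5 were listed and Spink8 was near 0, were also present and ranged from 3210 to 16250 in Veh, 3175 to 15280 in Dox and 3621 to 22830 with Dox + ABT. The part of these markers in the results was not tested, and in bulk tissue fewer cells of a type and less RNA per cell cannot be told apart.

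Few of the 45 genes differed between groups. At the study's threshold of p under 0.01 in limma's two-sided test on log2(normalized count + 1), Grin2a was higher and Grin2c lower in Dox than in Veh, which is 2 of 45 (4.44%), beside 2.87% of all tested genes (1.02% higher and 1.85% lower). Gria3 and Shisa7 were higher in Dox + ABT than in Veh, again 2 of 45 (4.44%), beside 7.84% of all genes (3.89% higher and 3.95% lower). Between Dox and Dox + ABT 0 of 45 passed, beside 4.03% of all genes (2.32% higher and 1.71% lower in Dox), and 2 of 45 had an unadjusted p under 0.05, beside 12.7% of all genes. None of the 45 had an adjusted p under 0.05 in any comparison, and the smallest adjusted p was 0.298, 0.113 and 0.281 in turn.

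The direction of change was mixed. In Dox 22 members lay above and 23 below Veh, with a median log2 fold change of -0.0026 (0.005 over all tested genes). In Dox + ABT 25 lay above and 20 below Veh, with a median of 0.0514 (-0.0009 over all), and between Dox and Dox + ABT the median was 0.0069 (-0.0014 over all). The standard errors of the fold changes of members ran from 0.0644 to 0.348 with a median of 0.14 in both comparisons with Veh, beside a median of 0.142 over all genes, and 35 of 45 members in Dox and 36 in Dox + ABT were within 0.25 of Veh on the log2 scale. No member had all 8 rats of a treated group above or all below every Veh rat, which held for 0.0192% of all tested genes in Dox and 0% in Dox + ABT.

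**Figure D1:**
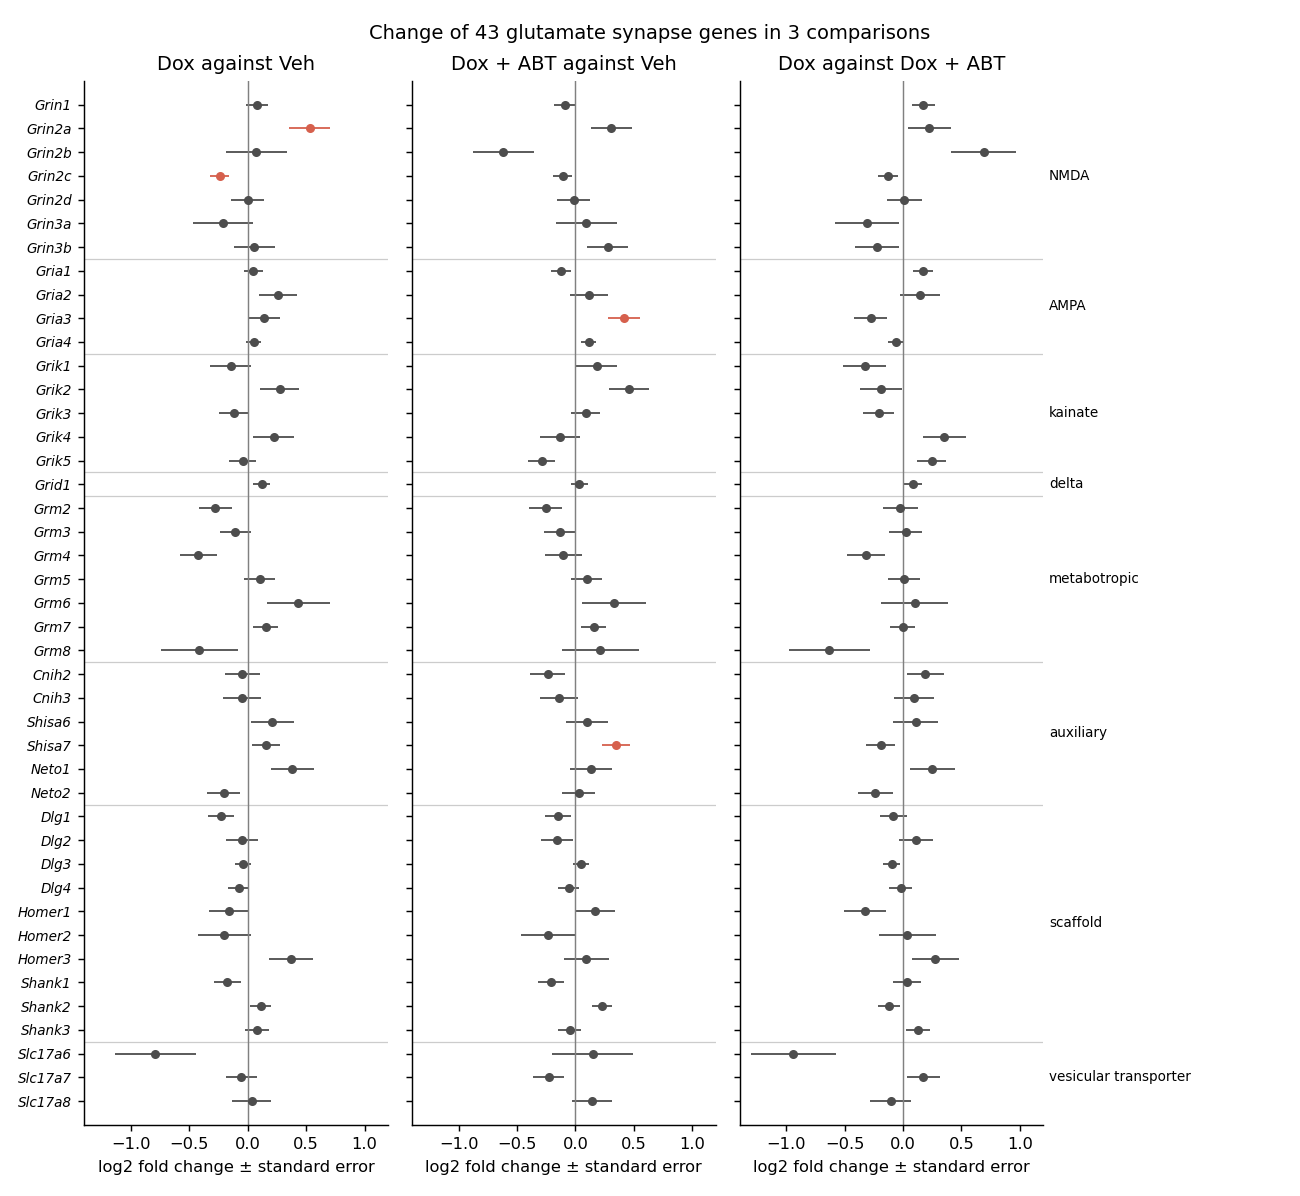
Log2 fold change (horizontal axis, with its standard error as a bar) of 43 of the 45 genes, grouped by role, in Dox against Veh, Dox + ABT against Veh and Dox against Dox + ABT. Red points passed limma p under 0.01: Grin2a (0.53) and Grin2c (-0.24) in the first panel, Gria3 (0.42) and Shisa7 (0.35) in the second, and none in the third. Most other points lie within 0.25 of 0.

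NMDA receptors are assembled from the obligatory subunit GluN1 (Grin1) with GluN2 subunits (Grin2a to Grin2d), which set calcium flow, channel kinetics and block by magnesium, or GluN3 subunits (Grin3a and Grin3b), which lower calcium flow. Grin2a encodes GluN2A, the GluN2 subunit that gains weight as forebrain synapses mature and that gives fast-closing channels. Its normalized count ran from 1050 to 2952 (median 1697) in Veh, from 1730 to 3388 (median 2530) in Dox and from 1585 to 2509 (median 2174) with Dox + ABT. All 8 Dox rats were above the Veh median, but the groups overlapped and only 1 Dox rat was above every Veh rat. The means were 1811 ± 698 (SD, n = 10), 2498 ± 523 (SD, n = 8) and 2117 ± 291 (SD, n = 8). Grin2a rose in Dox against Veh by 0.53 on the log2 scale (standard error 0.18, limma p = 0.00533, adjusted p = 0.298). The difference was 0.31 for Dox + ABT against Veh (p = 0.0922) and 0.22 for Dox against Dox + ABT (p = 0.236). With library kind in the model the Dox change was 0.42 (p = 0.00829), and within the kinds it was 0.33 in the first (p = 0.0694) and 0.47 in the second (p = 0.05). Leaving out any 1 of Dox rats 1, 2 and 10 or Veh rats 1, 2, 3 and 4 moved limma's p to between 0.0103 and 0.0156.

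Grin2c encodes GluN2C, a subunit whose channels are less blocked by magnesium and which forebrain astrocytes also express. Its normalized count ran from 1423 to 1952 (median 1734) in Veh, from 1228 to 1731 (median 1478) in Dox and from 1369 to 1916 (median 1615) with Dox + ABT. No Dox rat was above the Veh median, and 4 of 8 were below every Veh rat. The means were 1728 ± 151 (SD, n = 10), 1468 ± 195 (SD, n = 8) and 1608 ± 192 (SD, n = 8). Grin2c fell in Dox against Veh by 0.24 on the log2 scale (standard error 0.08, limma p = 0.00613, adjusted p = 0.307), while Dox + ABT differed from Veh by -0.11 (p = 0.196). Dox differed from Dox + ABT by -0.13 (p = 0.132). With the kind as a covariate the Dox change was -0.23 (p = 0.00849). It was -0.10 in the first kind (p = 0.403) and -0.36 in the second (p = 0.00203), a difference between kinds of -0.26 (p = 0.113). Without any 1 of Dox rats 1, 2, 5 and 7 or Veh rats 1, 2, 3 and 12, limma's p was 0.0106 to 0.0185. Of the 4 astrocyte markers examined, Gfap (-0.75, limma p = 4.1e-05), Aqp4 (-0.43, p = 0.00132) and Aldh1l1 (-0.43, p = 0.0034) fell in the same comparison and Gja1 differed by 0.06 (p = 0.664). Their summed level was 22310 to 41490 in Veh, 17150 to 25940 in Dox and 22830 to 37760 with Dox + ABT, and its part in the Grin2c result was not tested.

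Grin1, for the subunit that all NMDA receptors share, gave no call. It ran from 10470 to 15040 (median 13010) normalized counts in Veh, from 11000 to 15870 (median 14070) in Dox and from 10230 to 15460 (median 11380) with Dox + ABT, with overlap throughout. Its means were 12940 ± 1582 (SD, n = 10), 13660 ± 1520 (SD, n = 8) and 12170 ± 1863 (SD, n = 8). Dox differed from Veh by 0.08 on the log2 scale (standard error 0.09, limma p = 0.395), Dox + ABT from Veh by -0.09 (p = 0.324) and Dox from Dox + ABT by 0.17 (p = 0.0872). The difference between Dox and Veh in Grin1 was 0.28 within the first kind of library (p = 0.0211) and -0.16 within the second (p = 0.264), with an interaction p of 0.0159, and Dox was 0.26 above Dox + ABT within the first kind (p = 0.0138).

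Grin2b encodes GluN2B, the slow-closing subunit that prevails early in development and that adult forebrain neurons keep. In Veh its normalized count ran from 1588 to 3772 (median 2172) and in Dox + ABT from 1316 to 2075 (median 1597). In Dox it ran from 1729 to 9879 (median 1890), and the Dox values split into 6 rats at or below 2030 and Dox rats 5 and 7 at 9879 and 4558. Their summed levels of CA pyramidal markers, 10530 and 8307, lay within the wide range of the other Dox rats (3175 to 15280). The part of CA tissue in the Grin2b values of these 2 rats was not tested. Both of these libraries were of the second kind, in which Grin2b was also high among Veh rats, at 3046 ± 740 (SD, n = 6), against 1782 ± 276 (SD, n = 4) in Veh rats of the first kind. Group means were 2540 ± 870 (SD, n = 10) for Veh, 3182 ± 2871 (SD, n = 8) for Dox and 1584 ± 235 (SD, n = 8) for Dox + ABT, and Dox had 2225 ± 1036 (SD, n = 7) without rat 5. Grin2b differed by 0.07 (standard error 0.26, limma p = 0.781) between Dox and Veh, by -0.62 (p = 0.0258) for Dox + ABT against Veh and by 0.69 (p = 0.0186) for Dox against Dox + ABT, which were the smallest p-values of the NMDA genes in the last 2 comparisons. With library kind in the model the last 2 differences were -0.19 (p = 0.365) and 0.47 (p = 0.0288). Leaving out Dox rat 5 moved the difference between Dox and Dox + ABT to 0.41 (p = 0.0537) and, through the shared spread, the p for Dox + ABT against Veh to 0.00265. Within the first kind alone, where 5 Dox rats had 1805 ± 127 and 7 Dox + ABT rats 1514 ± 136, Dox was 0.26 above Dox + ABT (p = 0.00793).

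The remaining NMDA genes were at low counts and gave no call. Grin2d, for the slowest-closing GluN2 subunit, which interneurons use, ran from 104 to 207 (median 141) in Veh, from 103 to 201 (median 141) in Dox and from 100.4 to 196 (median 145) with Dox + ABT, with differences on the log2 scale of -0.0026 (p = 0.985), -0.0145 (p = 0.918) and 0.0119 (p = 0.936) for Dox against Veh, Dox + ABT against Veh and Dox against Dox + ABT. Grin3a ran from 41.4 to 121 (median 51.2), from 31.1 to 122 (median 46.9) and from 38.6 to 150.2 (median 52.1), and Dox rat 5 held the highest Dox value, apart from the rest of its group. Its differences were -0.21 (p = 0.418), 0.09 (p = 0.725) and -0.31 (p = 0.274). Grin3b ran from 38.2 to 117 (median 89.5) in Veh, from 52.5 to 113 (median 84.0) in Dox and from 83.4 to 112 (median 97.8) with Dox + ABT. The differences of Grin3b were 0.05 (p = 0.76), 0.28 (p = 0.128) and -0.22 (p = 0.242), and its lowest values in Veh and Dox were in libraries of the second kind.

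**Figure D2:**
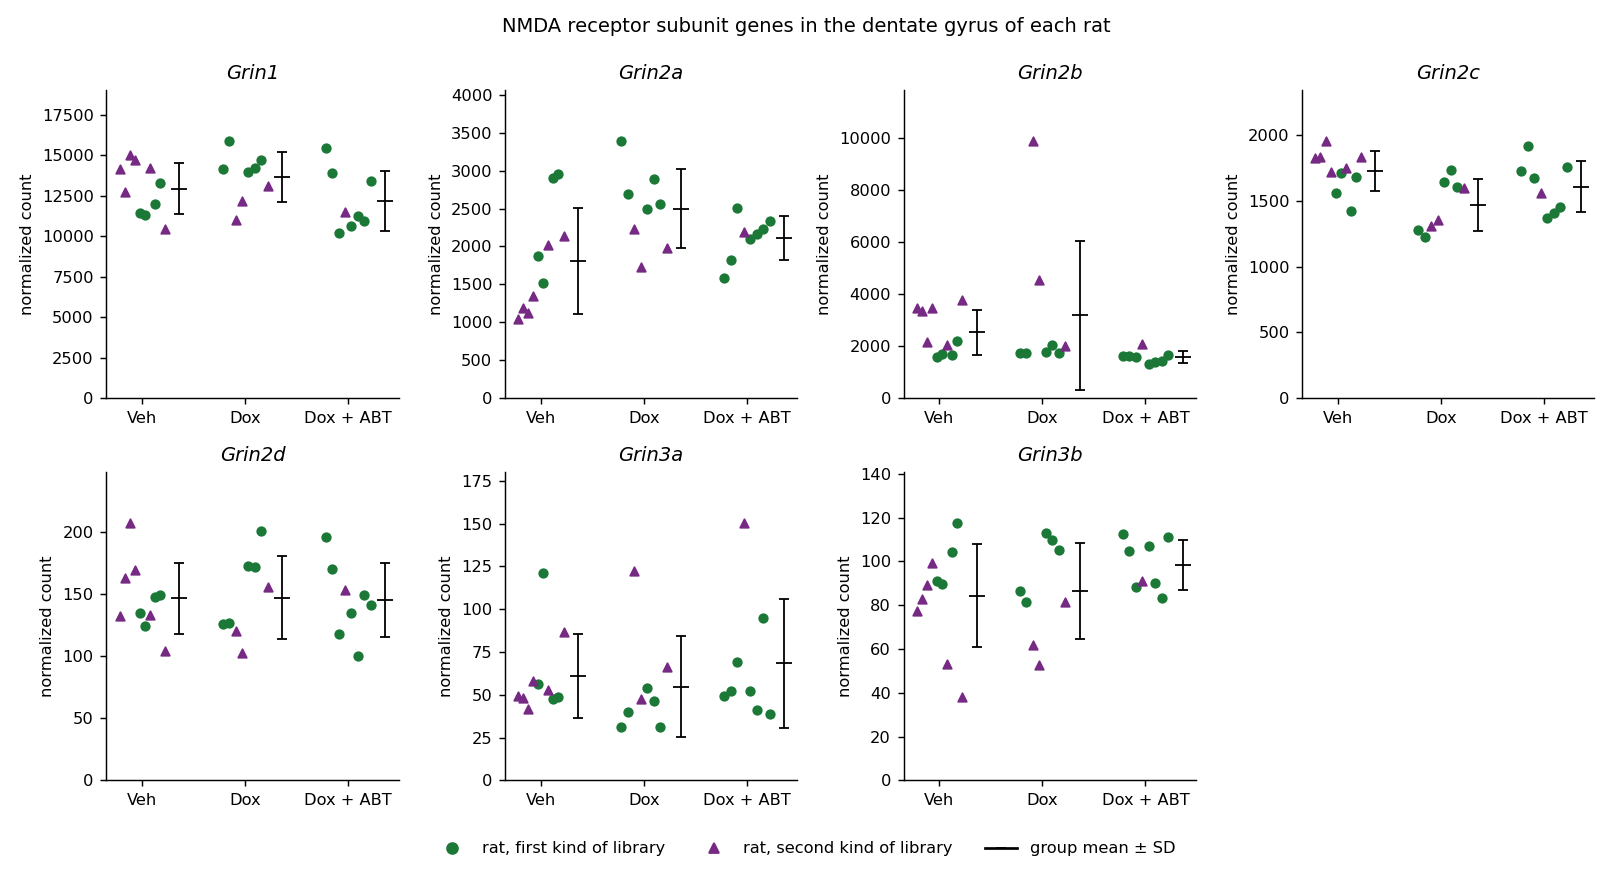
Normalized count (vertical axis, from 0) of the 7 NMDA receptor genes in each rat by group, with circles for the first and triangles for the second kind of library and bars for the group mean ± SD. Grin2a and Grin2c overlap between Veh and Dox but are shifted up and down, and Grin2b has 2 triangles in Dox, at 9879 and 4558, far above the rest of that group.

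The balance of Grin2a and Grin2b was compared within each rat, a choice made after the values had been seen. The ratio of Grin2a to Grin2b ran from 0.303 to 1.75 (median 0.732) in Veh, from 0.226 to 1.95 (median 1.41) in Dox and from 0.983 to 1.60 (median 1.48) with Dox + ABT. It overlapped between all groups. The mean log2 ratio was 0.46 higher in Dox than in Veh (two-sided exact permutation test, p = 0.343), 0.92 higher in Dox + ABT than in Veh (exact p = 0.0119) and 0.47 lower in Dox than in Dox + ABT (exact p = 0.345). Between the kinds of library the ratio overlapped only from 0.896 to 1.05, since it ran from 0.896 to 1.95 (median 1.45) in the 16 libraries of the first kind and from 0.226 to 1.05 (median 0.455) in the 10 of the second. Within the first kind the difference was 0.30 between Dox and Veh (exact p = 0.19), 0.14 for Dox + ABT against Veh (exact p = 0.527) and 0.16 for Dox against Dox + ABT (exact p = 0.311), and within the second it was -0.12 between Dox and Veh (exact p = 0.881).

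**Figure D3:**
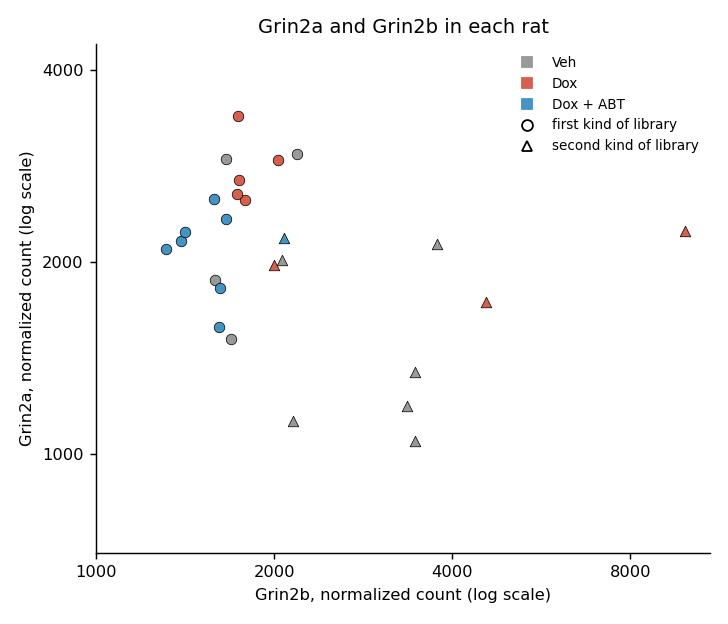
Grin2a against Grin2b in each of the 26 rats, in normalized counts on log axes, with groups by colour and kinds of library by shape. Triangles (second kind) lie mostly to the right of and below the circles (first kind), with ratios of at most 1.05 in each group, and the kinds overlap on both axes.

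AMPA receptors are tetramers of GluA1 to GluA4 (Gria1 to Gria4), of which GluA2 makes the channel impermeable to calcium. Gria3 gave the call of this family. Its normalized count ran from 1366 to 2600 (median 1985) in Veh, from 1609 to 2990 (median 2135) in Dox and from 2099 to 3594 (median 2446) with Dox + ABT. All 8 Dox + ABT rats were above the Veh median and 3 were above every Veh rat. Veh had a mean of 2035 ± 450 (SD, n = 10), Dox 2222 ± 398 (SD, n = 8) and Dox + ABT 2712 ± 601 (SD, n = 8). Gria3 rose in Dox + ABT against Veh by 0.42 on the log2 scale (standard error 0.14, limma p = 0.00465, adjusted p = 0.113), and Dox differed from Veh by 0.14 (p = 0.311). Dox was 0.28 below Dox + ABT (p = 0.0626), the smallest p of the family there. In Veh, Gria3 had 2503 ± 132 (SD, n = 4) in the first kind of library and 1723 ± 252 (SD, n = 6) in the second, and 7 of the 8 Dox + ABT rats had libraries of the first kind. With the kind as a covariate the difference from Veh was 0.28 (p = 0.0444), and within the first kind it was 0.11 (p = 0.415). Without any 1 of Dox + ABT rats 3, 5 and 6 or Veh rats 3 and 9, limma's p was 0.0107 to 0.0151.

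Gria2 had the smallest p of the AMPA genes between Dox and Veh, without passing. It ran from 5899 to 9120 (median 8509) in Veh, from 7226 to 22170 (median 7963) in Dox and from 7452 to 10160 (median 8374) with Dox + ABT, and Dox rats 5 and 7, at 22170 and 13920, stood apart from all other rats. The difference between Dox and Veh was 0.26 (standard error 0.16, p = 0.121), and it was -0.12 within the first kind of library (p = 0.256) and 0.79 within the second (p = 0.0139). Without Dox rat 5 the Dox mean was 8672 ± 2373 (SD, n = 7) instead of 10360 ± 5253 (SD, n = 8). Gria1, the subunit inserted in potentiated synapses, had 8428 ± 790 in Veh, 8755 ± 1299 in Dox and 7735 ± 733 with Dox + ABT. Gria4, more typical of interneurons, had 752 ± 64.4, 778 ± 48.2 and 814 ± 60.8, and with a coefficient of variation within groups of 7.54% it was the steadiest member. Neither passed in any comparison.

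Kainate receptors contain GluK1 to GluK3 (Grik1 to Grik3), with GluK4 and GluK5 (Grik4 and Grik5) as high-affinity partners. No kainate gene passed. Grik2 came nearest in both comparisons with Veh, with 445 to 1026 normalized counts (median 604) in Veh, 523 to 1059 (median 828) in Dox and 554 to 1198 (median 933) with Dox + ABT. It differed from Veh by 0.27 in Dox (limma p = 0.12) and by 0.46 in Dox + ABT (p = 0.0111), and by 0.12 (p = 0.239) and 0.13 (p = 0.209) with library kind in the model. The Dox + ABT difference of Grik2 passed the threshold without any 1 of Dox rat 14, Dox + ABT rat 4 or Veh rats 5, 6, 10 and 11, with p from 0.00202 to 0.00969. Grik5 had the smallest p of the family between Dox and Dox + ABT, with 3489 to 5743 (median 5038) in Dox and 3474 to 5644 (median 3728) with Dox + ABT, a difference of 0.24 (p = 0.057), and 5138 ± 939 in Veh. Its Dox + ABT rats lay low, 7 of 8 at or below the Veh median, with a difference of -0.29 from Veh (p = 0.0195). For Grik5 this was -0.25 (p = 0.0545) with library kind in the model and -0.03 (p = 0.827) within the first kind, and it passed without Dox + ABT rat 1 or without Veh rat 6. Grik4, which CA3 pyramidal cells also express strongly, had 1688 ± 453 in Veh, 1910 ± 263 in Dox and 1547 ± 449 with Dox + ABT. Grik1 had 86.7 ± 26.9, 77.6 ± 20.8 and 95.6 ± 15.5, and Grik3 had 297 ± 58.5, 270.2 ± 41.0 and 313 ± 52.4.

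Delta receptors act as postsynaptic adhesion partners of cerebellins more than as channels, and Grid1 encodes GluD1. Grid1 ran from 698 to 955 (median 817) in Veh, from 799 to 1022 (median 869) in Dox and from 704 to 1041 (median 839) with Dox + ABT, with differences of 0.12 between Dox and Veh (limma p = 0.117) and 0.08 between Dox and Dox + ABT (p = 0.288). Its values overlapped between all groups.

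The metabotropic receptors couple to G proteins, group I (Grm5 among them) to phospholipase C and groups II (Grm2 and Grm3) and III (Grm4, Grm6, Grm7 and Grm8) to inhibition of adenylyl cyclase, often on presynaptic endings. Grm4 had the smallest p of the 8 metabotropic genes in the comparisons of Dox with Veh and with Dox + ABT. It ran from 138 to 267 normalized counts (median 199) in Veh, from 81.0 to 196 (median 159) in Dox and from 114 to 263 (median 178) with Dox + ABT, and every Dox rat was below the Veh median, 3 of them below every Veh rat. The differences were -0.42 (standard error 0.16, limma p = 0.012) and -0.32 (p = 0.0659), and the first passed without any 1 of Dox rat 14, Dox + ABT rats 5 and 11 or Veh rats 5 and 10, with p from 0.00513 to 0.00956. Grm2, which granule cells express, ran from 1965 to 3007 (median 2452) in Veh, from 1386 to 3510 (median 1983) in Dox and from 1646 to 2734 (median 2034) with Dox + ABT. The Dox + ABT difference of Grm2 from Veh was -0.26 (p = 0.084), the smallest p of the family there, and 4 of 8 rats of each treated group were below every Veh rat. Without Dox rat 13, which held the highest Grm2 value, the gene passed between Dox and Veh.

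The group I gene Grm5 had 823 ± 225 in Veh, 870 ± 166 in Dox and 853 ± 63.0 with Dox + ABT. The astrocytic and neuronal receptor gene Grm3 had 868 ± 229, 792 ± 143 and 776 ± 111. Grm7, for a receptor at the release site, had 409 ± 60.6, 455 ± 69.6 and 457 ± 73.9. The counts of Grm6, best known from the retina, were 35.2 ± 14.8, 45.4 ± 16.1 and 42.6 ± 14.5, and those of Grm8 were 47.2 ± 26.5, 32.5 ± 10.98 and 59.8 ± 42.0. None of these 5 passed in any comparison, and Grm8 had a coefficient of variation within groups of 62.6%.

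Auxiliary subunits travel with the receptors, the cornichons (Cnih2 and Cnih3) and Shisa proteins with AMPA receptors and the Neto proteins with kainate receptors. Shisa7, whose product has been described at AMPA and also at GABA-A receptors, ran from 2327 to 4589 normalized counts (median 3642) in Veh, from 2688 to 4686 (median 4261) in Dox and from 3979 to 5283 (median 4530) with Dox + ABT. All 8 Dox + ABT rats were above the Veh median and 4 were above every Veh rat. Veh averaged 3609 ± 733 (SD, n = 10), Dox 4001 ± 691 (SD, n = 8) and Dox + ABT 4524 ± 454 (SD, n = 8). Shisa7 rose in Dox + ABT against Veh by 0.35 on the log2 scale (standard error 0.12, limma p = 0.00633, adjusted p = 0.116), while Dox differed by 0.16 (p = 0.197) from Veh and by -0.19 (p = 0.134) from Dox + ABT. Among Veh rats Shisa7 had 4266 ± 433 (SD, n = 4) in the first kind of library and 3171 ± 529 (SD, n = 6) in the second. The Dox + ABT difference was 0.16 (p = 0.0977) with the kind as a covariate and 0.11 (p = 0.202) within the first kind. Without any 1 of Dox + ABT rats 2, 3, 5 and 6 or Veh rats 1, 2, 9 and 12, limma's p was 0.0101 to 0.0161. The interneuron markers Gad1 (0.25, limma p = 0.00898) and Gad2 (0.27, p = 0.00795) also rose in Dox + ABT against Veh, 2 of 4 on that list. Sst differed by 0.11 (limma p = 0.41) and Pvalb by -0.30 (p = 0.209). The summed interneuron level, to which Gad1 and Gad2 gave the most counts, was 4774 to 6207 in Veh and 5489 to 6751 in Dox + ABT. With library kind in the model Gad1 differed by 0.12 (p = 0.116) and Gad2 by 0.16 (p = 0.084). Of the 4 astrocyte markers Aldh1l1 fell in Dox + ABT against Veh (-0.47, limma p = 0.00175, and 0.0183 with library kind in the model). Gfap differed by -0.37 (limma p = 0.0228), Aqp4 by 0.02 (p = 0.856) and Gja1 by 0.18 (p = 0.182). Of the 3 microglia markers Csf1r fell (-0.48, limma p = 0.00199, and 0.0295 with library kind in the model). Aif1 differed by -0.28 (limma p = 0.14) and Cx3cr1 by -0.34 (p = 0.0932). The summed microglia level was 1893 to 4025 in Veh and 1786 to 3153 in Dox + ABT. Of the 4 granule cell markers C1ql2 fell (-0.46, limma p = 0.000697, and 0.00812 with library kind in the model). Prox1 differed by 0.22 (limma p = 0.134), Dsp by -0.13 (p = 0.276) and Calb1 by -0.07 (p = 0.573). The summed granule cell level, to which C1ql2 gave the most counts, was 8851 to 13390 (median 11810) in Veh and 8177 to 10840 (median 9702) in Dox + ABT. The part of these markers in the Gria3 and Shisa7 results was not tested.

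With library kind in the model, 2.70% of all tested genes passed between Dox and Veh, 1.37% for Dox + ABT against Veh and 4.76% for Dox against Dox + ABT. Of the 45 members 2 (Grin2a and Grin2c), 0 and 1 (Slc17a6) then passed in limma's test. In Dox + ABT against Veh 1 member, Gria3, had an unadjusted p under 0.05, beside 7.37% of all genes. When libraries were instead weighted by their scatter (limma's arrayWeights), 10, 11 and 6 of 45 members passed, beside 20.2%, 34% and 10.3% of all genes, and with both the weights and the kind 1, 0 and 7 passed, beside 1.88%, 2.78% and 10.7%.

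Neto1, which also binds NMDA receptors, had the smallest p of the auxiliary genes between Dox and Veh. It ran from 567 to 1605 (median 1141) in Veh, from 1078 to 1603 (median 1415) in Dox and from 591 to 1694 (median 1328) with Dox + ABT, with 7 of 8 Dox rats above the Veh median and a difference of 0.38 (standard error 0.18, limma p = 0.0446). Neto2 had 114 ± 23.0 in Veh, 98.3 ± 20.9 in Dox and 116 ± 23.7 with Dox + ABT, and its difference of -0.24 between Dox and Dox + ABT (p = 0.128) was the smallest p there. Cnih2, a cornichon that slows AMPA receptor closing in the hippocampus, had 7341 ± 1831, 7014 ± 1264 and 6246 ± 1703, and Cnih3 had 53.5 ± 7.63, 52.2 ± 11.8 and 50.1 ± 16.1. Shisa6 had 548 ± 215, 615 ± 160 and 561 ± 101. Apart from Shisa7, no auxiliary gene passed.

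The scaffolds comprise SAP97, PSD-93, SAP102 and PSD-95 (Dlg1, Dlg2, Dlg3 and Dlg4), the Homer proteins, which link group I metabotropic receptors to calcium stores, and the Shank proteins, which bridge the other scaffolds. None of the 10 passed. Dlg1 had the smallest p between Dox and Veh, running from 624 to 1122 (median 775) in Veh, from 576 to 916 (median 662) in Dox and from 612 to 917 (median 714) with Dox + ABT, with 6 of 8 Dox rats below the Veh median and a difference of -0.23 (limma p = 0.0433). Shank2 had it between Dox + ABT and Veh, from 2627 to 4225 (median 3088) in Veh and from 3358 to 4157 (median 3760) in Dox + ABT, where all 8 rats were above the Veh median, with a difference of 0.23 (p = 0.0154, and 0.204 with the kind as a covariate). The Shank2 difference passed without Veh rat 5 or Veh rat 11 (p = 0.00577 and 0.00273), and in Dox the gene had 3473 ± 403. Homer1 had it between Dox and Dox + ABT, from 135 to 374 (median 229.5) in Dox, from 208 to 393 (median 308) in Dox + ABT and from 169 to 368 (median 257) in Veh, with a difference of -0.33 (p = 0.0807).

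The other scaffolds are given by their means. Dlg4, the gene of the most familiar postsynaptic scaffold, had 15860 ± 1949 in Veh, 14990 ± 1705 in Dox and 15230 ± 2080 with Dox + ABT, with differences from Veh of -0.08 (p = 0.39) and -0.06 (p = 0.519). Dlg2 had 968 ± 277, 914 ± 154 and 839 ± 84.1, and Dlg3 had 4355 ± 461, 4215 ± 342 and 4497 ± 275. The Homer2 counts were 161 ± 77.3, 131 ± 28.3 and 135 ± 67.0. For Homer3 they were 979 ± 254, 1243 ± 266 and 1061 ± 350.0, with 4 of 8 Dox rats above every Veh rat (0.37, p = 0.0635). Shank1 had 10750 ± 1395, 9540 ± 1460 and 9408 ± 2127, and Shank3, whose loss causes synaptic and behavioural deficits, had 7624 ± 1064, 8092 ± 1434 and 7350 ± 904.

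Vesicular glutamate transporters fill synaptic vesicles. Slc17a7 (VGLUT1) marks cortical and hippocampal glutamatergic neurons, Slc17a6 (VGLUT2) mostly subcortical ones and Slc17a8 (VGLUT3) small scattered populations. Slc17a6 ran from 51.9 to 297 normalized counts (median 96.0) in Veh, from 25.7 to 99.2 (median 60.0) in Dox and from 44.6 to 295 (median 99.0) with Dox + ABT, and 7 of 8 Dox rats were below the median of each other group. The means were 114 ± 74.6 (SD, n = 10), 61.6 ± 26.3 (SD, n = 8) and 130 ± 83.7 (SD, n = 8). Dox differed from Veh by -0.79 on the log2 scale (standard error 0.35, limma p = 0.0306) and from Dox + ABT by -0.94 (standard error 0.37, p = 0.0162), the smallest p of the 45 genes in that comparison. The latter was -1.05 with the kind as a covariate (p = 0.00751, adjusted p = 0.193), and it passed without any 1 of Dox rat 5, Dox + ABT rat 12 or Veh rat 6, with p from 0.00461 to 0.00977. The spread of Slc17a6 within groups (65.4%) was among the largest of the members. Slc17a7 ran from 31430 to 59040 (median 44000) in Veh, from 30020 to 49630 (median 45120) in Dox and from 27770 to 47510 (median 38340) with Dox + ABT, with the smallest p of the family for Dox + ABT against Veh (-0.23, p = 0.0974). Slc17a8 had 38.6 ± 13, 38.5 ± 7.05 and 41.5 ± 8.18.

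**Figure D4:**
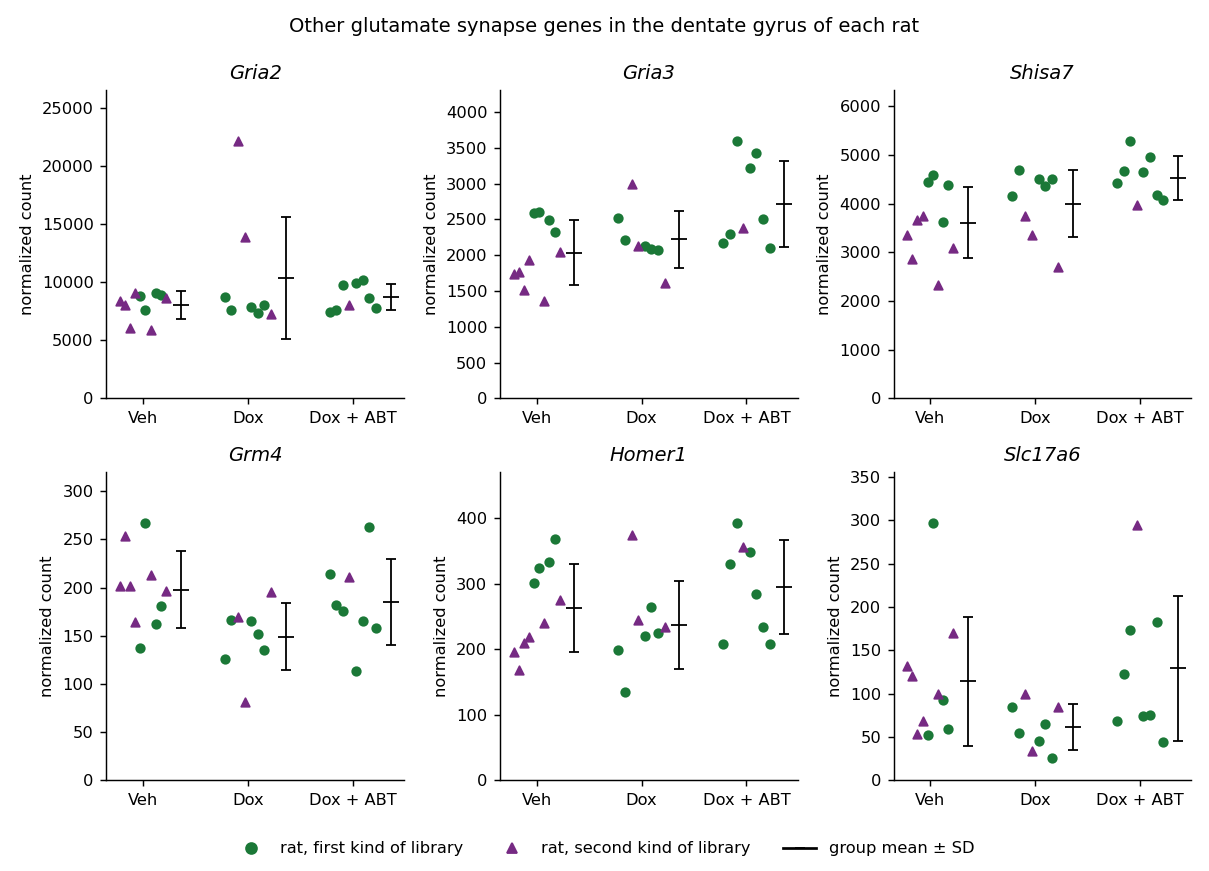
Normalized count (vertical axis, from 0) in each rat by group for Gria2, Gria3, Shisa7, Grm4, Homer1 and Slc17a6, with circles for the first and triangles for the second kind of library and bars for the group mean ± SD. In Gria3 the triangles of Veh lie below its circles and in Shisa7 mostly so, in Gria2 the 2 highest Dox rats are both triangles, and in Slc17a6 7 of 8 Dox rats lie under the Veh median of 96.0.

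Members also differed between the kinds of library. Within treatment groups, 13 of 45 members (28.9%) differed between the second and the first kind at limma p under 0.01, beside 35.1% of all tested genes. Most of those genes were used to make the split and the members were not, so the shares are not like for like. Of these 11 were lower in the second kind, among them Grin2a (-0.47, p = 0.0016), Grin3b (-0.48), Grik2 (-0.69, p = 1.49e-08), Grm5 (-0.41), Grm6 (-0.83), Grm7 (-0.30), Shisa6 (-0.65), Shisa7 (-0.41), Shank2 (-0.29) and Shank3 (-0.26). Grin2b (0.90, p = 1.57e-05) and the scaffold gene Dlg1 (0.26, p = 0.00566) were higher. By role these were 3 of 7 NMDA, 1 of 5 kainate, 4 of 8 metabotropic, 2 of 6 auxiliary and 3 of 10 scaffold genes, while among the AMPA, delta and transporter genes the smallest p was that of Gria3 (-0.29, p = 0.0143). In raw levels, Grik2 had 941 ± 127 (SD, n = 16) normalized counts in libraries of the first kind, 567 ± 91.4 (SD, n = 10) in those of the second, and Grin2b had 1672 ± 218 and 3678 ± 2351. Cell type markers moved with the kind as well, 7 of 26 tested being higher and 4 lower in the second kind at p under 0.01. Among them the second kind was higher in Fibcd1 of CA pyramidal cells (0.99), Pvalb of interneurons (0.88), Gfap of astrocytes (0.52), and Aif1 (0.69) and Csf1r (0.49) of microglia. It was higher in C1ql2 (0.28) and lower in Prox1 (-0.53) of granule cells, whose summed level had a median of 10240 in the first kind and 12030 in the second. It was also lower in Gja1 of astrocytes (-0.42), and Gad1 (-0.27) and Gad2 (-0.25) of interneurons. The summed level of the CA pyramidal markers was 3175 to 16250 (median 5342) in the first kind and 4148 to 22830 (median 9066) in the second. These markers other than C1ql2 were among the genes that made the split, and the part of all of them in the differences of members was not tested. Libraries of the second kind were 6 of 10 of Veh, 3 of 8 of Dox and 1 of 8 of Dox + ABT.

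**Figure D5:**
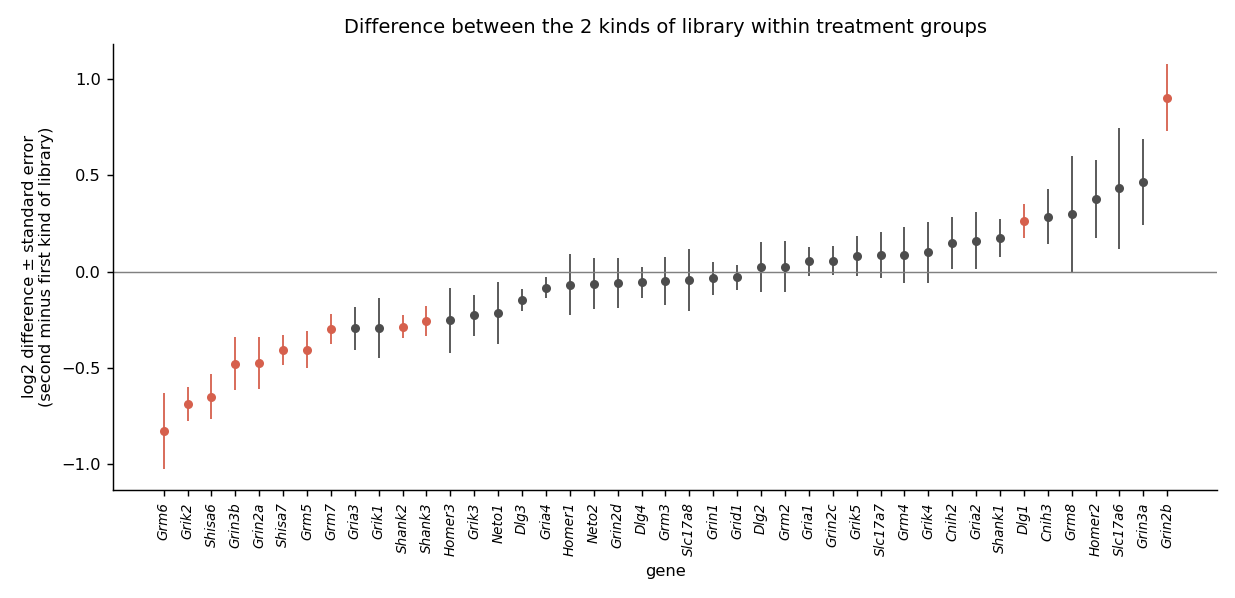
Log2 difference between the second and the first kind of library within treatment groups (vertical axis, with its standard error as a bar) for 43 of the 45 genes in rising order. Red points passed limma p under 0.01, 10 below 0 from Grm6 (-0.83) to Shank3 (-0.26) and 2 above 0, Dlg1 (0.26) and Grin2b (0.90).

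The interaction of treatment (Dox against Veh) with kind passed limma p under 0.01 for 4 of 45 genes, beside 7.75% of all tested genes, which is a similar share. In each of the 4 the difference had opposite signs in the kinds. Homer1 averaged 209 ± 47.8 (SD, n = 5) for Dox against 332 ± 27.6 (SD, n = 4) for Veh within the first kind, but 284 ± 78.2 (SD, n = 3) for Dox against 218 ± 36.6 (SD, n = 6) for Veh within the second. The log2 difference was -0.70 (limma p = 0.00217) in the first kind and 0.36 (p = 0.0686) in the second. These 2 differences were 1.06 apart (interaction p = 0.000955). For Gria2 they were -0.12 and 0.79 (interaction p = 0.00326), for Cnih2 0.35 and -0.43 (p = 0.00742) and for Grik5 0.26 and -0.32 (p = 0.00829). The second kind held only 3 Dox rats, 2 of them rats 5 and 7.

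Transcript rows were tested as deposited to see whether sums hid a change. The rows carry no transcript names, so they are numbered here by falling mean within a gene, and reads on shared exons could have been split between rows. Of 87 member rows with a mean of at least 5, 4 (4.6%) passed between Dox and Veh, beside 2.36% of 20203 rows, 4 (4.6%) between Dox + ABT and Veh, beside 6.39%, and 0 between Dox and Dox + ABT, beside 3.25%, with 8 member rows at an unadjusted p under 0.05 there, beside 11% of all rows. Beyond Grin2a and Grin2c, which have 1 row each, these were row 1 of Grm4 and row 2 of Homer3 in Dox. Row 1 of Grm4, with 94% of the gene's counts, fell from 189 ± 38.3 in Veh to 132 ± 35.0 in Dox (-0.53, limma p = 0.00277, adjusted 0.322). Row 2 of Homer3, with 15.4% of the gene, rose from 127 ± 34.5 to 190.4 ± 58.4 (0.57, p = 0.00638), and it rose to 192 ± 54.5 in Dox + ABT (0.58, p = 0.00561), while row 1 of Homer3 differed by 0.34 (p = 0.111) and 0.0077 (p = 0.97). In Dox + ABT the other rows that passed were row 2 of Gria3 (0.52, p = 0.0021), Shisa7 with its 1 row, and row 1 of Shank2 (0.29, p = 0.00637). With the kind as a covariate, row 1 of Grm4 (-0.50, p = 0.00518), row 2 of Homer3 (0.43, p = 0.00668) and Grin2c (-0.23, p = 0.00902) passed in Dox, and Grin2a, in this fit over rows, had 0.42 (p = 0.0103). None of the 4 rows passed in Dox + ABT under that model, with p of 0.0828 for row 2 of Homer3, 0.0184 for row 2 of Gria3 (0.40), 0.0998 for Shisa7 (0.16) and 0.0882 for row 1 of Shank2 (0.13).

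Other genes of the glutamate synapse were followed as a list of AMPA receptor partners, postsynaptic signalling proteins, trans-synaptic organizers and genes of glutamate and co-agonist supply, of which 55 were tested. In Dox against Veh 0 of 55 were higher and 1 lower at limma p under 0.01, beside 1.02% and 1.85% of all genes, and 0 were higher at p under 0.05, beside 4.77% of all genes. The gene that passed was Cacng4, for an AMPA receptor-associated TARP protein, which fell from 1668 ± 333 in Veh to 1226 ± 191 in Dox (-0.43, p = 0.00105, and 0.000291 with the kind as a covariate) and had 1232 ± 199.8 in Dox + ABT (-0.42, p = 0.00127). In Dox + ABT against Veh 1 was higher and 12 (21.8% of 55) lower, beside 3.89% and 3.95% of all genes. The smallest p-values belonged to the presynaptic adhesion gene Nrxn2 (-0.41, p = 0.000568), the secreted organizer C1ql2 (-0.46, p = 0.000697), which is also a granule cell marker, the scaffold gene Dlgap3 (-0.56, p = 0.00112), Cacng4 and the AMPA receptor assembly factor Frrs1l (-0.58, p = 0.00369). With library kind in the model 0 were higher and 2 lower, which were Nrxn2 (p = 0.00714) and C1ql2 (p = 0.00812), beside 0.641% and 0.731% of all genes. At p under 0.05 1 was then higher, beside 3.44% of all genes.

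Between Dox and Dox + ABT 6 of the 55 listed genes (10.9%) were higher in Dox and 0 were lower, beside 2.32% and 1.71% of all genes, and at p under 0.05 3 were lower, beside 5.94% of all genes. They included the scaffold gene Dlgap1, with 8293 ± 2842 normalized counts in Dox and 5477 ± 515 with Dox + ABT (0.55, limma p = 0.000373), C1ql3 (0.66, p = 0.00314), Frrs1l (0.56, p = 0.00665) and Camk2a (0.36, p = 0.00693), the kinase of synaptic potentiation. Dox rats 5 and 7 held the highest Dox values of Dlgap1 (14800 and 9912), C1ql3 (5424 and 3864, median 2088) and Frrs1l (1938 and 1079, median 679.5) but not of Camk2a, of which rat 5 had the lowest (17880). Within the first kind of library, which leaves out both rats, the differences were 0.36 for Dlgap1 (p = 0.000206), 0.32 for C1ql3 (p = 0.000669), 0.24 for Frrs1l (p = 0.0488) and 0.55 for Camk2a (p = 8.62e-05). With the kind as a covariate 8 were higher and 0 lower, beside 2.73% and 2.04% of all genes, and 2 were lower at p under 0.05, beside 6.55%. The median change of the 55 was 0.0256, -0.0699 and 0.0529 in the 3 comparisons in turn, beside 0.005, -0.0009 and -0.0014 over all tested genes. The TARP gene Cacng2, chosen after its values were seen, had the same uneven spread as Grin2b, with 2356 ± 2225 in Dox, 2139 ± 1141 in Veh and 946 ± 183 in Dox + ABT, and was higher in the second kind of library by 1.46 (p = 6.73e-09).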

How the data were processed

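Messenger RNA of the DG was measured in 26 rats, 1 library each. According to the labels and the study's methods, the authors aligned Ion Proton reads with STAR 2.5.3a (rat genome rn6) in Partek Flow and divided the estimated counts of transcript rows by Median Ratio factors. The deposited values are this normalized signal, not raw counts, so no count test was run. The authors' own test was DESeq2 at p under 0.01. Each column was mapped to 1 sample by its title.

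Rows sharing an Ensembl gene ID were added up. Genes averaging 5 or more were tested on log2(value + 1) with limma 3.58.1 in R 4.3.3 (variance trend, all 26 rats in 1 fit, two-sided), with Benjamini-Hochberg adjustment over 15595 genes. On this scale folds of low genes come out too small. Normalized totals do not give depth, so counting error and animal spread are not separated. Levels were not compared between genes, since transcript lengths were not used here. Ratios used exact permutation tests (scipy 1.17.1). Libraries correlated at 0.941 to 0.987, with 0 identical pairs.

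Kinds of library came from the first principal component of within-group deviations (28.4% of their variance; genes averaging 20 or more, without members and listed partners), each group being split at its widest gap. In Veh the split fell between rat 6 (-11.43) and rat 4 (10.42). The gap between rat 10 (-36.26) and rat 5 (-14.91) was nearly as wide, so the kinds of Veh rats 5 and 6 rest on a narrow margin.

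The members, the lists and the rule for named genes were chosen with earlier results of these data known. The 7 NMDA genes and every member at p under 0.01 are given in full, then per role the member with the smallest p in each comparison, the others by group means, and up to 5 listed partners per comparison. Alternatives were pseudocounts of 0.5 and 5, other filters, no trend, robust fits, TMM and quantile scaling, arrayWeights, 2 groups alone, single rows, 1 kind alone, a replicate block and 1 rat left out. arrayWeights with the kind as a covariate was added after seeing the data. A few members and listed partners are not reported here by name, and they remain in the counts.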

Additional observations from a re-analysis of the deposited data

Results flagged for a closer look

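In 135 checks of 45 genes in 3 groups, 10 found a rat whose distance to its nearest neighbour took up an unusually large part of the group's range (Dixon's 95% value), where chance gives about 1 in 20. Dox rat 5 gave 4 of these, being high in Grin2b (9879 normalized counts), Grin3a (122.2) and Gria2 (22170) and low in Grik5 (3490). Dox + ABT rat 4, the only library of the second kind in its group, was high in Grin2b (2075) and Homer2 (291.4). The others were Veh rat 10 in Shank1 (7668, low) and Slc17a8 (69.96, high), Veh rat 11 in Shank3 (10140, high) and Veh rat 6 in Slc17a6 (296.8, high).

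The log2 difference between Dox and Veh differed between the second and the first kind of library, by a limma interaction test without adjustment, in Homer1 (1.06), Gria2 (0.91), Cnih2 (-0.78) and Grik5 (-0.59). This is 4 of 45 genes, a share similar to the 7.75% of all tested genes, and it rests on 3 Dox rats in the second kind.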

How the results depend on the processing

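The calls rest on a threshold without adjustment, and each depended on which rats and which kinds of library were counted. The number of members called between Dox and Veh was 2, and it was 1 after quantile scaling (Grin2c; 2.83% of all genes), with the replicate block (Grin2a; 4.91%), in the first kind of library alone (Homer1; 4.76%), with the 2 groups fitted alone (Grin2c; 2.02%) and with arrayWeights plus the kind as a covariate (1.88%), 10 with arrayWeights (20.2% of all genes under that fit) and 4 over transcript rows. Between Dox + ABT and Veh it was 2, and it was 1 with the replicate block (Gria3; 7.57%), 0 with the kind as a covariate (1.37%), in the first kind alone (1.10%) and with arrayWeights plus that covariate (2.78%), 11 with arrayWeights (34% of all genes) and 4 over rows. Between Dox and Dox + ABT it was 0, and it was 1 with the kind as a covariate (Slc17a6; 4.76%), 1 in the first kind alone (Grin2b; 8.21%), 6 with arrayWeights (10.3% of all genes) and 7 with arrayWeights plus the covariate (10.7%). Leaving out 1 rat gave 0 to 3, 0 to 4 and 0 to 1 members. The count was 0 between Dox and Veh without Dox rats 1 or 2 or Veh rats 1, 2 or 3, and 0 between Dox + ABT and Veh without Dox + ABT rats 3, 5 or 6 or Veh rat 9. The median change for Dox + ABT against Veh was 0.0514, and it was -0.0559 in the first kind alone and -0.0544 with arrayWeights plus the covariate. Of the named genes, Slc17a7 reversed for Dox + ABT against Veh after quantile scaling (0.0485) and in the first kind alone (0.0027), and Gria2 for Dox against Veh in the first kind alone (-0.1214). The cause was not tested. Replicate numbers name different rats. Over 16 pairs with the same number, deviations from the group means correlated at -0.222 to 0.442 (median -0.0125), over 0.1 in 6. Over 208 pairs with other numbers they correlated at -0.57 to 0.504 (median -0.000569), over 0.1 in 70. Whether rats of some numbers shared a batch was not tested. Fewer rats in the second kind (3 Dox and 1 Dox + ABT) limit what can be compared there.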

Other observations

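Spread between rats of a group differed widely among the 45 genes. The coefficient of variation within groups had a median of 21.4% and ran from 7.54% (Gria4), 8.65% (Dlg3) and 9.65% (Grid1) to 62.6% (Grm8), 65.4% (Slc17a6) and 68.7% (Grin2b). The receptor subunit genes Grin1 (12.8%) and Gria1 (11.5%) and of the scaffold Dlg4 (12.5%) were among the steadier ones, and Gria2, at 34.1%, was not, with Dox rats 5 and 7 far above the others. Of the 45 genes, 8 had a mean under 100 normalized counts, where few reads limit precision.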
